A study of Macaca mulatta with 14 samples.

Results

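AMP-activated protein kinase (AMPK) and the factors that drive mitochondrial biogenesis were examined in peripheral blood mononuclear cells (PBMC), which are mostly lymphocytes with some monocytes, of aged male rhesus macaques. The set was chosen by name and held 10 genes: the AMPK subunits PRKAA1, PRKAA2, PRKAB1, PRKAB2 and PRKAG1, the upstream kinase STK11, and the biogenesis regulators TFAM, NRF1, ESRRA and PPARGC1A. All probe sets that the platform annotation assigns to 1 of these symbols alone were taken. That gave 21 probe sets for 7 of the 10 genes, of 24969 single-gene probe sets for 14133 genes on the array. PRKAG1, STK11 and ESRRA had no probe set assigned to them alone in the annotation used and were not analysed here. The 7 control animals ate a control diet and belonged to a group aged 24 to 27 years. The 7 calorie-restricted (CR) animals belonged to a group aged 24 to 30 years. The design text gives 16 years of restriction but words it for both groups. It was taken to hold for the CR animals alone. Each animal gave 1 array, the groups are of male animals only, and the labels give no cell sorting, so every value is an average over all cells of the preparation.

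AMPK is the energy sensor of the cell. It is a trimer of a catalytic alpha subunit, a scaffolding beta subunit and a gamma subunit that binds adenine nucleotides, and it is switched on when AMP and ADP rise relative to ATP and the kinase LKB1 (the STK11 product) or CAMKK2 phosphorylates the alpha subunit. Active AMPK turns down lipid and protein synthesis, turns on autophagy, and acts on PGC-1 alpha (PPARGC1A), a coactivator that works with NRF1 and ESRRA to raise transcription of nuclear genes for mitochondria. TFAM, a target of NRF1, enters mitochondria, where it packages their DNA and acts as a factor in its transcription. NRF1 here is nuclear respiratory factor 1 and not NFE2L1, which has also gone by that name.

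No difference between the diets passed the test for any of these genes. The brightest probe set of each of the 5 genes with usable signal differed by 0.07 to 0.23 log2 units, all 5 on the higher side in CR, as were 54% of the 9355 tested genes by their brightest set, and every difference was smaller than its own standard error. Probe sets of the same gene went to opposite sides for PRKAA1, PRKAB2, TFAM and NRF1, and only PRKAB1 had all of its tested probe sets on 1 side. PRKAA2 and PPARGC1A gave signals too dim for the test. Values are log2 of the deposited MAS5 signal, in which each array was scaled as a whole and values under 16 (log2 of 4) were set to 16. The brighter 50% of probe sets, by mean over all arrays, were tested with limma, and a call needs an adjusted p (Benjamini-Hochberg over all tested probe sets) under 0.05.

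Of the 21 probe sets, 16 passed the signal filter and 5 did not. Among the 16, 0 were called and 0 had an unadjusted p under 0.05 (limma). The background over all 26383 tested probe sets was a share called of 0% at the adjusted threshold and 5.12% at the unadjusted one, so the count of 0 among so few probe sets is near what all probe sets show. The smallest adjusted p among the 16 was 0.918 (limma). In CR, 9 of them were on the higher side and 7 on the lower side, or 56.2% higher, against 48.1% of all tested probe sets. The median absolute difference was 0.164 for the 16 and 0.183 for all. No tested probe set of these genes separated the diets without overlap, as 0.0834% of all tested probe sets did, and neither did any of the 5 dim ones (0.0606% of all probe sets with no signal filter).

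The arrays differed in quality and in cell markers. Their median correlation with the others ran from 0.879 (control 1) to 0.933. The log2 ratio of 3-prime to 5-prime GAPDH control signal is a measure of RNA integrity. It ran from 5.06 to 7.50 in controls (mean 6.14) and from 6.03 to 6.87 in CR (mean 6.58), with control 1 the highest. On every array the 3-prime signal was thus many times the 5-prime signal. Markers of blood mononuclear cells passed the filter for 6 of 6 T cell, 6 of 7 B cell, 12 of 13 NK and cytotoxic and 11 of 11 monocyte genes with a probe set. So did 7 of 8 platelet and 7 of 9 neutrophil genes. Passing a filter on brightness does not show which cells a signal came from. Whether cells other than mononuclear ones were present was not tested. The monocyte score, the mean of the centred log2 values of the monocyte genes, ran from -0.56 to 0.72 in controls and from -1.56 (CR 6) to 0.93 (CR 1) in CR, with CR 7 at -1.21. Its 11 genes were all on the lower side in CR (median difference -0.46), as were 7 of 7 neutrophil genes (median -0.46, mean score 0.285 in controls and -0.285 in CR). The T cell score ran from -0.71 to 0.13 in controls and from -0.35 to 0.60 in CR, with 5 of 6 genes on the higher side. The NK and cytotoxic score ran from -0.67 to 0.12 and from -0.17 to 0.39, with 10 of 12 genes on the higher side. No marker gene passed the adjusted threshold (limma), and 3 T cell and 5 NK and cytotoxic genes had an unadjusted p under 0.05. The part of these markers in the differences between the diets was not tested beyond the covariate fits given here. In such mixed samples, fewer cells of a type and less RNA per cell cannot be told apart.

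PRKAA1 encodes alpha-1, the catalytic subunit that predominates in blood cells. Its brightest probe set (MmugDNA.1625.1.S1_at) had a lowest, median and highest control signal of 8.54, 9.10 and 9.73, and in CR of 8.64, 9.40 and 9.55. The ranges lay almost on top of each other, with control 5 and CR 6 the low arrays. The difference was 0.12 ± 0.19 (SE, 7 against 7 arrays), a 1.08-fold signal, with a 95% interval from 0.818-fold to 1.44-fold (adjusted p = 0.957, limma). Leaving out control 5 gave 0.014 and leaving out CR 6 gave 0.22. A second set (MmugDNA.14300.1.S1_at) had nearly the same difference, 0.10 ± 0.31, from a mean of 9.11 ± 0.612 (SD, n = 7) in controls.

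The other tested PRKAA1 probe sets did not point the same way. MmugDNA.14299.1.S1_at ran from 7.23 through a median of 8.18 to 9.37 in controls and from 6.74 through 8.11 to 8.63 in CR, with CR 1 and CR 2 below every control and control 1 highest of all. Its difference of -0.58 ± 0.36 was the largest in size among the 16 tested probe sets, though the medians of the diets were close and 3 of 7 CR arrays exceeded the control median (adjusted p = 0.924, limma). The dimmest tested set, with a control mean of 7.31 ± 0.636 (SD, n = 7), differed by 0.30 ± 0.30, and 5 of 7 CR arrays exceeded the control median. Across the 14 arrays the brightest set had a Pearson r of -0.49 with MmugDNA.14299.1.S1_at and of -0.39 with the dimmest, so sets annotated to 1 gene did not track each other. These r values are descriptions, since all sets were read from the same arrays, which differ in RNA integrity.

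A last PRKAA1 probe set, MmugDNA.578.1.S1_at, lay below the signal filter. On the linear scale its control signals were 6.76, 7.60, 25.8, 8.84, 3.94, 6.54 and 7.26, so that 6 of 7 were under the floor of 16. Its CR signals were 57.6, 120.1, 44.7, 90.3, 6.82, 43.3 and 28.2, with only CR 5 under the floor. Thus 6 of 7 CR arrays exceeded every control, though all of these signals are dim. Without a signal filter the difference was 1.47 ± 0.37 log2 units at the floor of 16, with an unadjusted p of 0.00118 and an adjusted p of 0.76 (limma). Of all 52766 probe sets in that fit, 0.152% had an unadjusted p as small, 4.92% one under 0.05, and 0% were called. A floor of 64 left a difference of 0.20. It was singled out after its values were seen, and the brighter probe sets of the gene showed no such separation.

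PRKAA2 encodes alpha-2, the catalytic subunit known from muscle, heart and liver. Its only probe set (MmuSTS.3031.1.S1_at) was below the filter, with linear control signals of 105.4, 45.0, 47.7, 82.3, 18.8, 32.8 and 6.49. The CR signals were 32.8, 9.45, 53.4, 12.01, 21.8, 47.5 and 39.0. The highest signals were those of control 1 and control 4, and 3 of the 14 arrays were under the floor. The log2 difference was -0.48 ± 0.45 (95% interval -1.43 to 0.48).

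**Figure D1:**
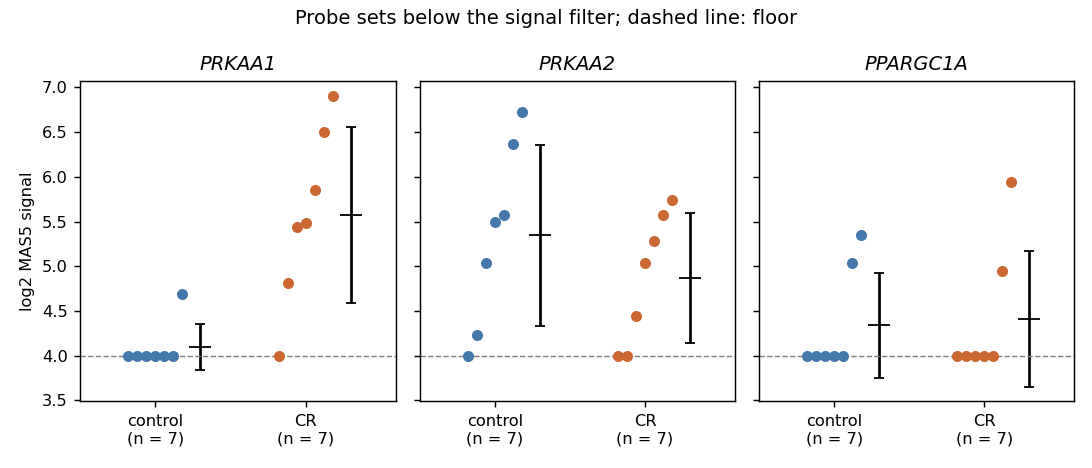
Log2 MAS5 signal of the PRKAA1, PRKAA2 and PPARGC1A probe sets below the signal filter, 1 point per animal, with the mean ± SD beside each group of 7 and the floor of 16 (log2 of 4) as a dashed line. In the PRKAA1 set 6 controls and 1 CR array lie on the floor, in the PPARGC1A set 5 of 7 in each diet.

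The beta subunits carry a glycogen-binding module and hold the trimer together. PRKAB1 (beta-1) had a bright probe set (MmugDNA.30456.1.S1_at) whose lowest, median and highest signals were 9.35, 10.22 and 10.84 in controls and 10.01, 10.34 and 10.88 in CR. Control 1 alone was low, and the remaining arrays of both diets covered the same range. The difference was 0.12 ± 0.21, a 1.08-fold signal (95% interval 0.798-fold to 1.47-fold, adjusted p = 0.961, limma). Without control 1 it was -0.034, so the side it fell on rested on that array.

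The dimmer PRKAB1 probe set (MmugDNA.21654.1.S1_at) ran from 6.16 through 6.79 to 7.83 in controls and from 6.72 through 7.33 to 7.76 in CR. Controls 1, 2 and 3 were lower than every CR array and control 6 was higher than every one, and 6 of 7 CR arrays exceeded the control median. The difference was 0.46 ± 0.27, a 1.38-fold signal (adjusted p = 0.92, limma). With the GAPDH ratio as a covariate it was 0.64 ± 0.27 (unadjusted p = 0.0301, adjusted p = 0.689, limma). Both sets correlated at r = 0.55 over the 14 arrays.

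PRKAB2 (beta-2) is known as the main beta subunit of skeletal muscle. Its brightest probe set (MmugDNA.42505.1.S1_at) ran from 10.14 through 10.47 to 11.27 in controls and from 10.18 through 10.46 to 11.85 in CR. The medians were nearly the same, and the highest CR arrays were CR 4 (11.85) and CR 5 (11.25). The mean difference was 0.23 ± 0.25. Without CR 4 it was 0.047. The 95% interval was 0.812-fold to 1.69-fold (adjusted p = 0.94, limma).

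The second PRKAB2 set (MmuSTS.3694.1.S1_at) correlated with the first at r = 0.66 but went to the other side. It ran from 8.30 through 10.03 to 10.62 in controls and from 8.33 through 8.99 to 10.85 in CR, with CR 4 again highest. Of the 7 CR arrays only that 1 exceeded the control median, and the difference was -0.46 ± 0.39 (adjusted p = 0.931, limma). The dimmest set (MmugDNA.8810.1.S1_at) differed by 0.048 ± 0.33. CR 4 was the highest array in all 3 PRKAB2 sets.

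**Figure D2:**
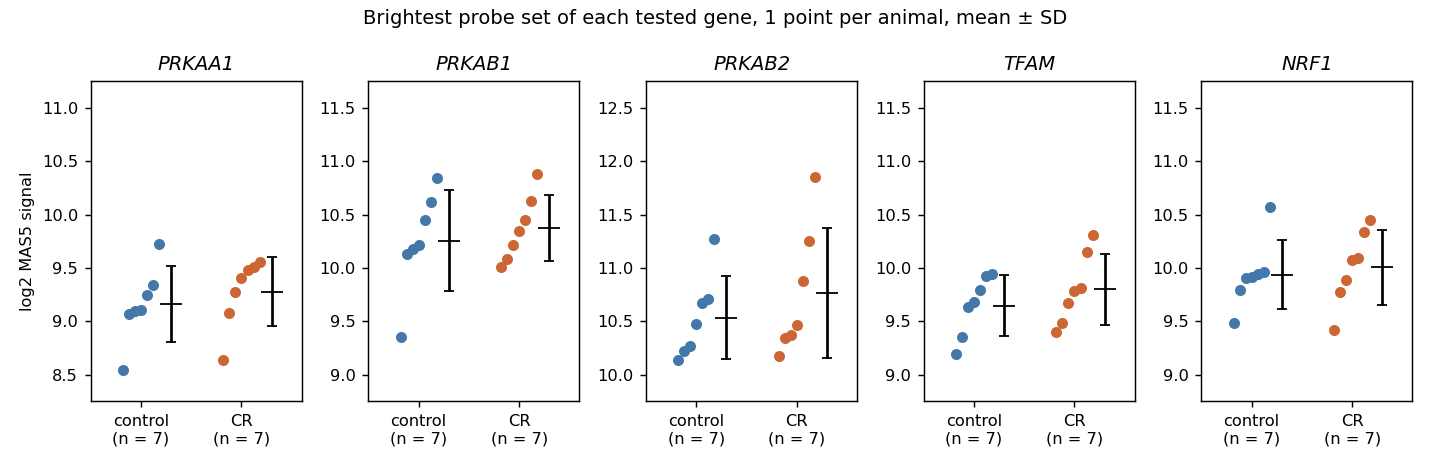
Log2 MAS5 signal of the brightest tested probe set of PRKAA1, PRKAB1, PRKAB2, TFAM and NRF1 in each animal, controls left and CR right, with mean ± SD (n = 7 each); each panel spans 3 log2 units. The diets overlap in every panel, with control 1 low for PRKAB1 and high for NRF1, and CR 4 high for PRKAB2.

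In the transcriptional arm, too, no difference passed the test. PPARGC1A, the inducible coactivator of mitochondrial biogenesis, had 1 probe set (MmuSTS.1237.1.S1_at), and 5 of 7 arrays in each diet were under the floor. The arrays above it were control 1 and control 6, at linear signals of 32.8 and 40.7, and CR 2 and CR 6, at 61.3 and 30.8. The diets thus had the same number of arrays with any signal, and the log2 difference was 0.071 ± 0.34 (95% interval -0.65 to 0.79). This is a bound on what a dim probe set can show and not a measurement of a PPARGC1A level.

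NRF1, the transcription factor of nuclear genes for the respiratory chain, had 3 tested probe sets. The brightest (MmugDNA.39469.1.S1_at) ran from 9.49 through 9.92 to 10.57 in controls and from 9.42 through 10.07 to 10.45 in CR. Control 1 was highest and CR 1 lowest, and the difference was 0.067 ± 0.19, a 1.05-fold signal (95% interval 0.795-fold to 1.38-fold, adjusted p = 0.975, limma). MmugDNA.17884.1.S1_at had a mean of 9.73 ± 0.43 (SD, n = 7) in controls and 9.56 ± 0.168 in CR. Its control spread came from control 1 and control 5, and the difference of -0.17 ± 0.19 was -0.045 without control 1.

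The dimmest NRF1 set (MmugDNA.25325.1.S1_at) had the smallest unadjusted p of the 16, at 0.0925 (limma). It ran from 7.43 through 8.08 to 8.94 in controls and from 7.33 through 7.63 to 8.12 in CR, and 1 of 7 CR arrays exceeded the control median. The difference was -0.40 ± 0.23, a 0.756-fold signal (adjusted p = 0.918, limma). It stayed below 0 in each fit that left out 1 array, from -0.51 to -0.26. With the GAPDH ratio as a covariate it was -0.51 ± 0.24 (unadjusted p = 0.0451, adjusted p = 0.698, limma). In that fit 2 of the 16 tested sets, and 1879 of all 26383 tested probe sets, had an unadjusted p under 0.05. The mean over the 3 NRF1 sets differed by -0.17 ± 0.16.

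TFAM had 6 probe sets, 4 of them tested. The brightest (MmugDNA.4916.1.S1_at) ran from 9.19 through 9.68 to 9.94 in controls and from 9.40 through 9.79 to 10.31 in CR, with CR 6 (10.31) and CR 7 (10.15) above every control. The difference was 0.15 ± 0.18, a 1.11-fold signal (95% interval 0.856-fold to 1.45-fold, adjusted p = 0.945, limma). Without CR 6 and CR 7 together it was -0.017, so the higher mean rested on that pair of arrays. These were also the arrays lowest in monocyte, neutrophil (-1.58 and -1.67) and platelet (-1.95 and -1.16) scores.

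The other tested TFAM sets differed by -0.16 ± 0.18 (MmugDNA.19819.1.S1_at), -0.015 ± 0.24 (MmugDNA.12055.1.S1_at) and -0.26 ± 0.29 (MmugDNA.5268.1.S1_s_at). All 3 were highest in control 1, at 9.42, 9.48 and 8.35. Below the filter, MmugDNA.5268.1.S1_at had log2 signals of 6.70, 5.64 and 6.73 in controls 1, 2 and 7, while the highest other value was 4.80 (CR 3), with 2 CR arrays on the floor. MmugDNA.4628.1.S1_at was on the floor in 4 of 7 arrays of each diet. Over all tested sets the mean TFAM difference was -0.070 ± 0.15, opposite in sign to that of the brightest set.

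**Figure D3:**
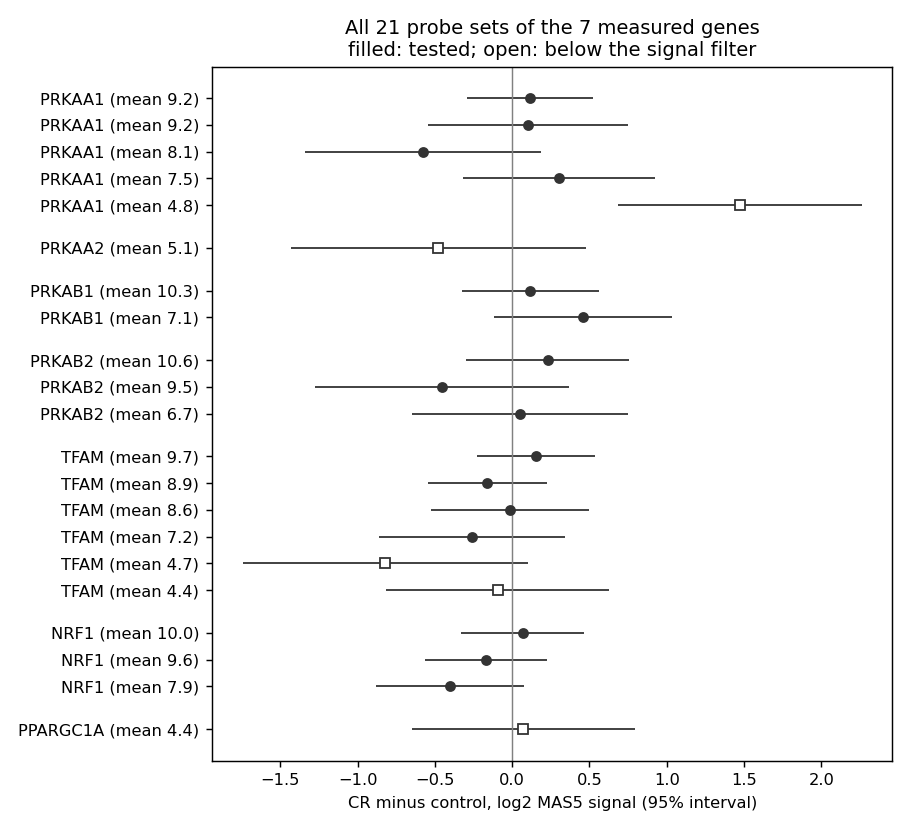
CR minus control in log2 MAS5 signal with its 95% interval from limma, for all 21 probe sets (rows, with the mean log2 signal of each), filled where tested and open where below the signal filter. Every interval of a tested probe set crosses 0, and only that of the dim PRKAA1 set (0.68 to 2.26), which had no test in the filtered fit, does not.

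Of the 4 tested TFAM probe sets, only the brightest had a relation to the monocyte score that passed after adjustment. This brightest set fell as the monocyte score rose, with r = -0.82 and a Spearman rho of -0.79 over the 14 arrays (permutation p = 0.00024 and 0.00137, adjusted p = 0.0048 and 0.0274 over 20 relations of 5 genes to 4 scores). The slope went the same way within controls (r = -0.64, exact p = 0.126, n = 7) and within CR (r = -0.92, exact p = 0.00556, n = 7), though neither passed after adjustment over the 40 relations within a diet (adjusted p = 0.111 for the second). Without CR 6 and CR 7, the arrays farthest from the median score, r was -0.60 (permutation p = 0.04, n = 12). Other marker scores moved with the monocyte score. The neutrophil score had an r of 0.89 with the monocyte score and of -0.68 with TFAM, and the platelet score of 0.70 and -0.57, in a comparison added after seeing the data (permutation p = 0.00748 and 0.033, adjusted p = 0.015 and 0.033 over both, with a rho of -0.52 and -0.44 that did not pass). Without CR 6 and CR 7 these were -0.20 and -0.056. Of 9344 tested genes that are not monocyte markers, 33, or 0.353%, had an r as low as that of TFAM, and the median r was -0.032. Counting both directions, as the two-sided test does, 1.74% had an r at least as large in size. The other TFAM probe sets gave weaker values over the 14 arrays, at r = -0.51, -0.33 and 0.26, and none passed after adjustment over all 16 probe sets, a comparison added after seeing the data, in which the brightest had an adjusted p of 0.00384 (permutation). Within controls these other sets had an r of -0.64, -0.43 and -0.41, and within CR of -0.79, -0.37 and 0.61 (exact p in CR = 0.0331, 0.414 and 0.139). Without CR 6 and CR 7 their r was -0.34, -0.45 and -0.27. With 4 lineage scores (T, B, NK and monocyte) as covariates, the CR difference of the brightest TFAM set was -0.10 ± 0.20 (adjusted p = 1, limma).

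**Figure D4:**
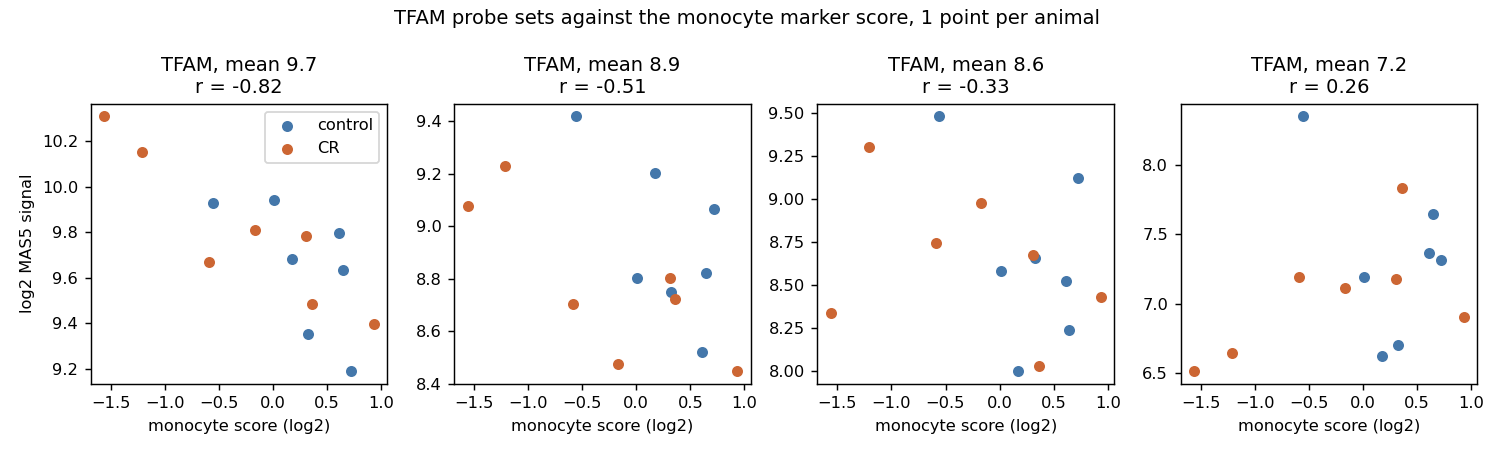
Log2 MAS5 signal of the 4 tested TFAM probe sets against the monocyte marker score of each array, controls in blue and CR in orange. The brightest set falls from 10.31 in CR 6 to 9.19 in control 5 as the score rises (r = -0.82). The dimmest has an r of 0.26 over the 14 arrays, but of -0.27 without CR 6 and CR 7.

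No other relation among the brightest probe sets passed in the 20 relations. Of these sets NRF1 had an r of -0.52 with the monocyte score (adjusted p = 0.325, permutation). Without CR 6 and CR 7 the r of this NRF1 set was -0.68 (unadjusted permutation p = 0.0151, n = 12). Within controls it was -0.74 and within CR -0.45 (exact p = 0.0796 and 0.32). The dimmer NRF1 sets had an r of -0.20 and 0.17 over the 14 arrays. Among the other brightest sets, r with the monocyte score was 0.26 for PRKAA1, 0.15 for PRKAB2 and 0.023 for PRKAB1. The other PRKAA1 sets went the opposite way over the 14 arrays, at -0.55 (MmugDNA.14300.1.S1_at), -0.42 and -0.42, and none passed over the 16 probe sets (adjusted p = 0.255, 0.352 and 0.352, permutation). Without CR 6 and CR 7 the brightest PRKAA1 set had an r of -0.080 and the others of -0.27, -0.40 and -0.17. The score of mitochondrial content genes had an r of -0.55 with TFAM and of -0.37 with NRF1, and neither passed (adjusted p = 0.325 and 0.44, permutation). Between the 5 genes themselves 0 of 10 pairs passed by r, where the smallest adjusted p was 0.473 (permutation), and TFAM and NRF1 had an r of 0.18. By rank, PRKAA1 and PRKAB2 had a rho with NRF1 of -0.64 each, which did not pass either (adjusted p = 0.088 for both, permutation). The alpha-1 and beta subunits of AMPK, which act as 1 complex, had an r of 0.081 (PRKAB1) and 0.23 (PRKAB2) with each other in signal.

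For each gene the closest pattern among 9350 other tested genes over the 14 arrays was that of DCTN6, a dynactin subunit, for PRKAA1 (r = 0.87), LOC707072 for PRKAB1 (r = 0.88), PROS1, the anticoagulant protein S, for PRKAB2 (r = 0.91), FOXN2, a forkhead factor, for TFAM (r = 0.91) and C1H1orf56 for NRF1 (r = 0.91). Each is the highest of many r values and is a description.

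Around these genes, 7 lists of the AMPK and biogenesis pathway were described by the brightest tested probe set of each gene. Adjusted over all probe sets, 0 genes of any list were called, against 0% of all tested probe sets. Over all 9355 tested genes the median CR minus control difference was 0.025 and 54% were on the higher side, and 5.18% had an unadjusted p under 0.05. These are the shares to read each list against.

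Upstream of AMPK, 4 of 8 tested genes were on the higher side, with a median of -0.012. The LKB1 partner CAB39 differed by -0.29 ± 0.21, though its other probe sets gave 0.43 ± 0.28 and 0.051 ± 0.31. The calcium-dependent AMPK kinase CAMKK2 differed by -0.22 ± 0.19 and CAB39L, the close relative of CAB39, by 0.18 ± 0.25. Dimmer sets gave -0.24 ± 0.19 for CAMKK2, and 0.54 ± 0.42 and 0.50 ± 0.31 for CAB39L. Among the AMPK-related kinases, which share the LKB1 activation mechanism except for MELK, 2 of 6 were on the higher side (median -0.026). The polarity kinase MARK2 differed by 0.34 ± 0.19, and 7 of 7 CR arrays exceeded the control median. MARK3 differed by -0.23 ± 0.30 and SIK1, a CREB pathway inhibitor, by 0.39 ± 0.54, which was 0.0997 without control 4 and 0.887 without control 5. Median centring of the arrays put both medians above 0 (0.023 and 0.00881), so they have no settled side. The mean of the kinases, 0.065, also had the other sign.

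Of the AMPK substrates 10 of 14 were on the higher side, with a median of 0.11, and 2 had an unadjusted p under 0.05. TBC1D1, a Rab GTPase-activating protein of glucose transporter traffic, was at 10.57 ± 0.803 (SD, n = 7) in controls and 11.36 ± 0.332 in CR. Its difference of 0.79 ± 0.29 is a 1.72-fold signal, in which 7 of 7 CR arrays exceeded the control median (adjusted p = 0.918, limma). It was 0.526 without control 5. BECN1, a subunit of the autophagy lipid kinase complex, was at 12.95 ± 0.188 in controls and 13.26 ± 0.128 in CR. The difference of 0.31 ± 0.12 (adjusted p = 0.918, limma) again had 7 of 7 CR arrays over the control median, but a dimmer BECN1 set gave -0.21 ± 0.15. The autophagy kinase ULK1 differed by -0.25 ± 0.16 and by -0.39 ± 0.22 in its other set.

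The coactivators, nuclear receptors and partner factors of PGC-1 alpha were on the lower side in 12 of 15 genes, with a median of -0.10 that was -0.0434 without control 4 and -0.158 without control 1. In this list 1 of 15 genes had an unadjusted p under 0.05, near the 5.18% of all genes. PPARGC1B, the PGC-1 beta coactivator, was at 8.43 ± 0.398 (SD, n = 7) in controls and 7.80 ± 0.529 in CR. The difference was -0.63 ± 0.25, a 0.644-fold signal, and 1 of 7 CR arrays exceeded the control median (adjusted p = 0.918, limma). Its other probe sets gave -0.57 ± 0.29 and 0.68 ± 0.60. YY1, a zinc finger factor that works with PGC-1 alpha, differed by -0.25 ± 0.12, while its other sets gave 0.063 ± 0.17 and 0.059 ± 0.17. MEF2C differed by -0.33 ± 0.27, and by 0.0175 ± 0.33 and -0.32 ± 0.28 in its other sets.

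Genes that transcribe, replicate and package mitochondrial DNA, the process TFAM belongs to, were on the higher side in 4 of 11, with a median of -0.022 that was 0.0122 after median centring and a mean of 0.035. MTERF3, a regulator of mitochondrial transcription and ribosome assembly, differed by 0.47 ± 0.21 and by 0.40 ± 0.21 in its other set, and the elongation factor TEFM by 0.29 ± 0.16 (6 of 7 and 7 of 7 CR arrays over the control median). MTERF1 differed by -0.19 ± 0.18. Of the genes of mitochondrial content and protein import, 10 of 16 were on the higher side, with a median of 0.035 and a mean of -0.015. The median was -0.0356 without CR 1 and -0.0284 without CR 2. HSPA9, the matrix chaperone that pulls proteins in, was at 11.75 ± 0.471 (SD, n = 7) in controls and 11.25 ± 0.259 in CR. Its difference was -0.50 ± 0.20, no CR array exceeded the control median, and its other sets gave -0.21 ± 0.28 and -0.32 ± 0.24 (adjusted p of the first = 0.918, limma). The outer membrane channel VDAC1 differed by -0.26 ± 0.17, and by -0.0242 ± 0.225 in its other set. The complex I subunit NDUFS8 differed by 0.44 ± 0.35.

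Of the fusion and fission genes 4 of 5 were on the lower side (median -0.17). MIEF1, the outer membrane adaptor that recruits the fission GTPase, was at 10.45 ± 0.452 (SD, n = 7) in controls and 9.74 ± 0.326 in CR. The difference of -0.71 ± 0.21, a 0.613-fold signal, had an unadjusted p of 0.00334 and an adjusted p of 0.918 (limma), and no CR array exceeded the control median. Its other sets gave -0.28 ± 0.18 and -0.081 ± 0.17. MTFR1 differed by -0.24 ± 0.24, and by -0.051 ± 0.23 in its other set. The inner membrane fusion GTPase OPA1 differed by -0.17 ± 0.18. Its other sets gave -0.054 ± 0.23, 0.15 ± 0.42, -0.36 ± 0.23 and -0.017 ± 0.25. Without CR 6 and CR 7 the median of the list was -0.0295.

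**Figure D5:**
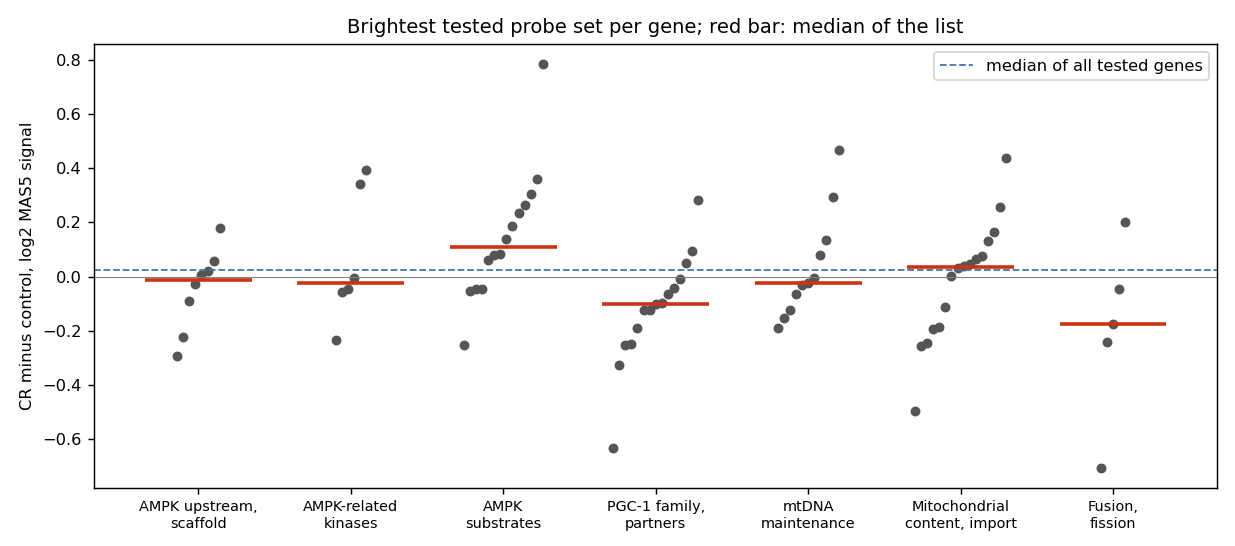
CR minus control in log2 MAS5 signal for each tested gene of the 7 pathway lists (1 point per gene, brightest probe set), with the median of each list as a red bar and the median of all 9355 tested genes (0.025) as a dashed line. List medians lie between -0.17 (fusion and fission) and 0.11 (AMPK substrates), and single genes spread from -0.71 (MIEF1) to 0.79 (TBC1D1).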

How the data were processed

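Per the labels, total RNA of 14 animals was extracted with Trizol and hybridised as biotin-labelled cRNA to Affymetrix arrays. The authors deposited MAS5 intensity values, linear, for each probe set. The tool is named without a version, per the submitters' processing notes. MAS5 scaling makes a change in total RNA invisible. Intensities under 16 were raised to 16 before the log2 step. Of 52865 probe sets 99 AFFX controls were dropped, and the 50% with the higher mean (26383, geometric mean signal at least 87.7) were tested with limma 3.58.1 in R 4.3.3 (trend, two-sided, no covariate), and checked on simulated arrays. Genes were named from single-symbol probe sets. The Entrez IDs of all 7 measured genes were in the current rhesus table with the same symbol. Correlations used two-sided permutation tests (100000 resamples over 14 arrays, exact within a diet) in Python 3.11.15. The alternatives were other filters, floors, scalings, covariates and array sets.

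Members and lists were chosen with earlier results of these data known. Named genes are the 10 members, the 3 genes of each pathway list with the smallest unadjusted p, and for each tested member the gene with the highest r. Each array is 1 animal. Precision is limited by the number of arrays (median SE 0.253).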

Additional observations from a re-analysis of the deposited data

Results flagged for a closer look

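Of 42 groups of 7 arrays, 1 held an array far from the others, and chance flags about 5% of such groups. In the dim PRKAA1 probe set MmugDNA.578.1.S1_at, control 3 had a log2 signal of 4.69 and the other 6 controls were on the floor of 16, so any value above it would stand apart.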

How the results depend on the processing

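Over all limma alternatives run, 0 probe sets were called, among the members and over the whole table (917 to 1879 at an unadjusted p under 0.05 with the main filter and 26383 probe sets, 2598 with no filter and 803 with the upper 25%), with a smallest adjusted p of 0.085 over the table (without control 6) and 0.689 among tested members (GAPDH covariate). With the replicate block 0 were called (smallest adjusted p 0.622 over the table, 0.773 for members), and no call changed. The numbers were not taken to pair animals, since 4 of 7 same-numbered pairs had a correlation of deviations over 0.1 and 1 of 7 matched its own number best. Of 431 member values, 395 kept their side. Cell type covariates turned PRKAA1 to -0.000724 (brightest) and -0.39 (MmugDNA.14300.1.S1_at), PRKAB1 to -0.0188, PRKAB2 to 0.28 (MmuSTS.3694.1.S1_at) and -0.093 (MmugDNA.8810.1.S1_at), TFAM to -0.10, CAMKK2 to 0.081, CAB39L to -0.22, MARK2 to -0.055, MARK3 to 0.047, MEF2C to 0.060, VDAC1 to 0.12 and NDUFS8 to -0.034. Array weights gave PRKAA1 -0.012 (MmugDNA.14300.1.S1_at), PRKAB1 -0.00978, PRKAB2 -0.013 (MmugDNA.8810.1.S1_at) and TFAM 0.21 (MmugDNA.12055.1.S1_at). Without CR 6 and CR 7, chosen after seeing the data, PRKAA1 was -0.18 (MmugDNA.14300.1.S1_at), PRKAB2 -0.065 (MmugDNA.8810.1.S1_at) and TFAM -0.017, and without control 1 and CR 2, also chosen after, PRKAB1 was -0.00734 and TFAM 0.23 (MmugDNA.12055.1.S1_at). Median centring put that TFAM set at 0.020, and the GAPDH covariate NRF1 at -0.011. The mean over probe sets was -0.013 for PRKAA1, -0.060 for PRKAB2, -0.070 for TFAM and -0.17 for NRF1. Leaving out 1 array, the ranges of tested member sets that crossed 0 were -0.048 to 0.25 (PRKAA1 MmugDNA.14300.1.S1_at), -0.034 to 0.22 (PRKAB1), -0.11 to 0.20 (PRKAB2 MmugDNA.8810.1.S1_at), -0.13 to 0.12 (TFAM MmugDNA.12055.1.S1_at) and -0.0083 to 0.17 (NRF1). The brightest sets of PRKAA1 (0.014 to 0.22), PRKAB2 (0.047 to 0.35) and TFAM (0.070 to 0.22) stayed above 0. Below the filter, those of PPARGC1A (-0.183 to 0.239) and TFAM MmugDNA.4628.1.S1_at (-0.278 to 0.123) crossed 0. Quantile normalization turned the r of PRKAA1 with the T cell score from 0.020 to -0.026. The causes were not tested. All 140 list medians moved by less than 1 SD of the list across arrays of a diet, but leaving out 1 array turned the sign of 4: AMPK upstream (-0.0796 to 0.0341), AMPK-related kinases (-0.0663 to 0.103), mitochondrial DNA (-0.091 to 0.0123) and mitochondrial content (-0.0356 to 0.0514). Signal near background limits PRKAA2, PPARGC1A and the dim PRKAA1 set.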

Other observations

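The beta-2 subunit gene PRKAB2 was set against the T cell score within each diet. In the 7 CR arrays its brightest probe set had an r of -0.96 with the T cell score (exact p = 0.00179, two-sided), and in the 7 controls an r of -0.48 (exact p = 0.28). The first is the smallest p of 40 such relations within a diet (5 genes, 4 scores, 2 diets), and its adjusted p over them is 0.0716. Over all 14 arrays r was -0.51 (adjusted p = 0.325 over 20 relations, permutation). In a comparison added after seeing the data, the other PRKAB2 sets had an r over all arrays of -0.71 (MmuSTS.3694.1.S1_at, permutation p = 0.00488, adjusted p = 0.0146 over the 3 sets) and -0.25 (MmugDNA.8810.1.S1_at, permutation p = 0.394). Within CR these sets had an r of -0.86 and -0.60 (exact p = 0.0137 and 0.162). Within controls it was -0.48 and 0.11 (exact p = 0.275 and 0.822), so the last set went the other way there. The difference between the diets in this relation was not tested. CR 4, where the T cell score was lowest among CR arrays (-0.35), had the highest PRKAB2 signal (11.85), and CR 2, where the score was highest (0.60), the lowest (10.18). With 4 lineage scores (T, B, NK and monocyte) as covariates, the CR difference of this probe set was 0.62 ± 0.25 (unadjusted p = 0.0257, adjusted p = 1, limma).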
